A study of Mus musculus with 8 samples.

Results

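Aminoacyl-tRNA synthetases join each amino acid to its tRNA, the step that sets the genetic code before the ribosome reads it. Their genes were followed in activated mouse CD8+ T cells, the cytotoxic arm of the T cell response, with and without the kinase LKB1 (gene Stk11), which activates AMPK and related kinases. The set is the 36 synthetase genes given by name and matched by exact symbol, 20 for the cytosolic enzymes and 16, with symbols ending in 2, for the mitochondrial enzymes, among 24421 genes in the count tables. All 36 were found, and 36 of 36 passed the filter on low counts. Naive cells were activated for 48 h on plates coated with anti-CD3 and anti-CD28, and RNA was counted by 3' RNA-seq. The groups were 4 libraries labelled LKB1-deficient and 4 labelled LKB1 wild type, called control. The sources used here give no allele, no driver of the deletion and no ages of the mice. Nor do they tell whether each library is from its own mouse, so the p-values reflect only how far these libraries scatter, which may be technical.

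Cytosolic synthetases charge tRNAs for the bulk of protein synthesis, which T cells raise steeply on activation, and several of them sit together in the multisynthetase complex. The mitochondrial enzymes are also encoded in the nucleus, are imported, and serve the few proteins made inside mitochondria. When charging falls behind, uncharged tRNA activates the kinase GCN2, and through the factor ATF4 cells raise many cytosolic synthetase genes. Some of these genes carry the ATF4-bound motif TGATGNAA near their start.

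Most synthetase genes differed little between the groups. Eprs, for glutamyl-prolyl-tRNA synthetase, rose 1.77-fold in LKB1-deficient cells (1408 ± 235 against 797 ± 143 CPM, counts scaled to library size, in control cells; mean ± SD, n = 4 each), and Hars, for histidyl-tRNA synthetase, rose 1.37-fold (495 ± 40.1 against 360 ± 38.9 CPM). No cytosolic gene passed in the other direction, and 0 of the 16 mitochondrial genes passed in either. In edgeR's quasi-likelihood test with Benjamini-Hochberg adjustment over all 10396 tested genes, 2 of the 36 members were called at an adjusted p of 0.05, against 22.5% of all tested genes (12.4% higher and 10.1% lower). At an unadjusted p under 0.05 there were 3 cytosolic and 4 mitochondrial members, 19.4% of the 36 against 39.3% of all tested genes, and DESeq2 called 3 mitochondrial members where limma-voom called 0. The median log2 fold change, LKB1-deficient over control, was 0.03 for the cytosolic and -0.02 for the mitochondrial genes, and 0.00 for all tested genes; the cytosolic median was -0.07 when scaled by upper quartile and -0.13 when scaled by total count, beside -0.10 and -0.16 for all tested genes. Libraries of the groups did not overlap for 7 of the 36, against 26.1% of all tested genes.

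The sequences that bear on this are the stretches near the starts of the synthetase genes. RefSeq promoters of GRCm38.p6, 250 bases before to 50 bases after each start, matched 26 of the 36 members. The motif TGATGNAA, searched on both strands, was in 5 of them, all cytosolic, or 19.2% of the matched members against 3.97% of the 32851 promoters in the table. The windows are shown 5' to 3' on the strand of the gene with the match in capitals, where a match on the other strand shows as its reverse complement, because ATF4 is known to act through this motif.
Yars, chr4:129189880-129189939, plus strand: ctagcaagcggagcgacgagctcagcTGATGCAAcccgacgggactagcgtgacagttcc
Gars, chr6:55037945-55038004, plus strand: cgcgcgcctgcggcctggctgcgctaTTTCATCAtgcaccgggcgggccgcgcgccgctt
Aars (farther upstream), chr8:111033704-111033763, plus strand: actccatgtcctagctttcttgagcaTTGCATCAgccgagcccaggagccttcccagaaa
Aars (past the start), chr8:111033825-111033884, plus strand: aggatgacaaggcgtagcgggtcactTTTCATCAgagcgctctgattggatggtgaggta
Iars, chr13:49682111-49682170, plus strand: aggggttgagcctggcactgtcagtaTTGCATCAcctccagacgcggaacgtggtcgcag
Tars, chr15:11399640-11399699, minus strand: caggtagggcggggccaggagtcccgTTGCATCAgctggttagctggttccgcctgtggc
Their log2 fold changes were 0.01 for Yars, -0.01 for Gars, -0.14 for Aars, 0.09 for Iars and 0.15 for Tars, and none of the 5 passed. The E-box CACGTG, a motif bound by MYC, was in the promoters of Farsb, Ears2, Aars, Iars and Tars, 19.2% of the matched members against 7.15% of all promoters in the table, and 3 of these overlap with the genes above. None of the 7 genes with either motif was called, beside 5.56% of the 36 members and 22.5% of all tested genes. The Eprs promoter, shown because Eprs rose most, held neither motif in this window, and its bases after the start are in capitals.
Eprs, chr1:185362794-185363093, plus strand: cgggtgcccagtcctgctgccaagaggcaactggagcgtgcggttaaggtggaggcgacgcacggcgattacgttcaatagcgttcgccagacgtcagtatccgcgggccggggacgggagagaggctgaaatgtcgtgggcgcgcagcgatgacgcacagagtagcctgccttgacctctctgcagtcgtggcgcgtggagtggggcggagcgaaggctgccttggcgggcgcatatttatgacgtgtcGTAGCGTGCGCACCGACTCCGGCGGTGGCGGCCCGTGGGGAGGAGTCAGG

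The targeted gene does not check the labels here. Stk11 was at 79.8 ± 19.1 CPM in libraries labelled LKB1-deficient and 81.9 ± 13.9 CPM in control libraries (SD, n = 4 each; log2 fold change -0.03 ± 0.18, adjusted p = 0.911). Counts at transcript 3' ends miss a deletion elsewhere in the gene, and which part was deleted is not stated, so the genotypes rest on the labels alone. The libraries were of unequal depth. LKB1-deficient libraries held 3454388 to 6356125 gene counts and control libraries 7090252 to 12211930, and each member had at least 25 counts in every library. CPM were scaled with TMM factors, and fold changes carry approximate standard errors (SE). Beside the 2337 genes called (55.0% of them higher), scaling by upper quartile or total count turned the split to 41.4% or 34.5% higher and shifted the overall median log2 fold change to -0.10 or -0.16. LKB1-deficient replicates 2 and 4 stood apart on the first principal component (56.4% of the variance), at -51.7 and -54.4, against -12.5 and -6.79 for LKB1-deficient replicates 1 and 3 and 21.7 to 37.9 for the control libraries. Without both of them 260 genes were called in all. Reads outside genes were taken as a share of reads in genes, outside genes or ambiguous between genes, leaving aside reads aligned to several places. The share was 14.9% to 17.5% in LKB1-deficient and 12.1% to 14.3% in control libraries, highest in LKB1-deficient replicates 2 and 4. Reads aligned to several places came to 2.21 to 2.65 times the gene counts in LKB1-deficient and 2.92 to 3.50 times in control libraries. Neither range overlapped between the groups. Of 6 markers of CD8 T cells, 3 were called lower in the LKB1-deficient libraries, 50% against 22.5% of all tested genes called. Log2 fold changes of the 6 ran from -1.12 to 0.32, and 2 of them were above 0. Their summed CPM was 1737 to 2715 in LKB1-deficient and 3214 to 3728 in control libraries. Markers of other cell types summed to 11.3 to 22.4 CPM in LKB1-deficient and 13.2 to 19.2 CPM in control libraries. Of these 16 markers only Gata2 and Epcam were abundant enough to test (5.22 ± 4.44 against 1.23 ± 0.365 CPM in control cells, adjusted p = 0.0422, and 4.82 ± 3.15 against 12.9 ± 3.49 CPM, adjusted p = 0.0425), Hba-a1 and Hbb-bs were at 0 in every library, and Cd79a, Csf1r and Adgre1 were at 0 in the LKB1-deficient libraries. The part of depth, of read quality and of these markers in the results on the synthetases was not tested beyond the alternatives given below. In such bulk samples fewer cells of a type and less RNA per cell cannot be told apart.

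**Figure D1:**
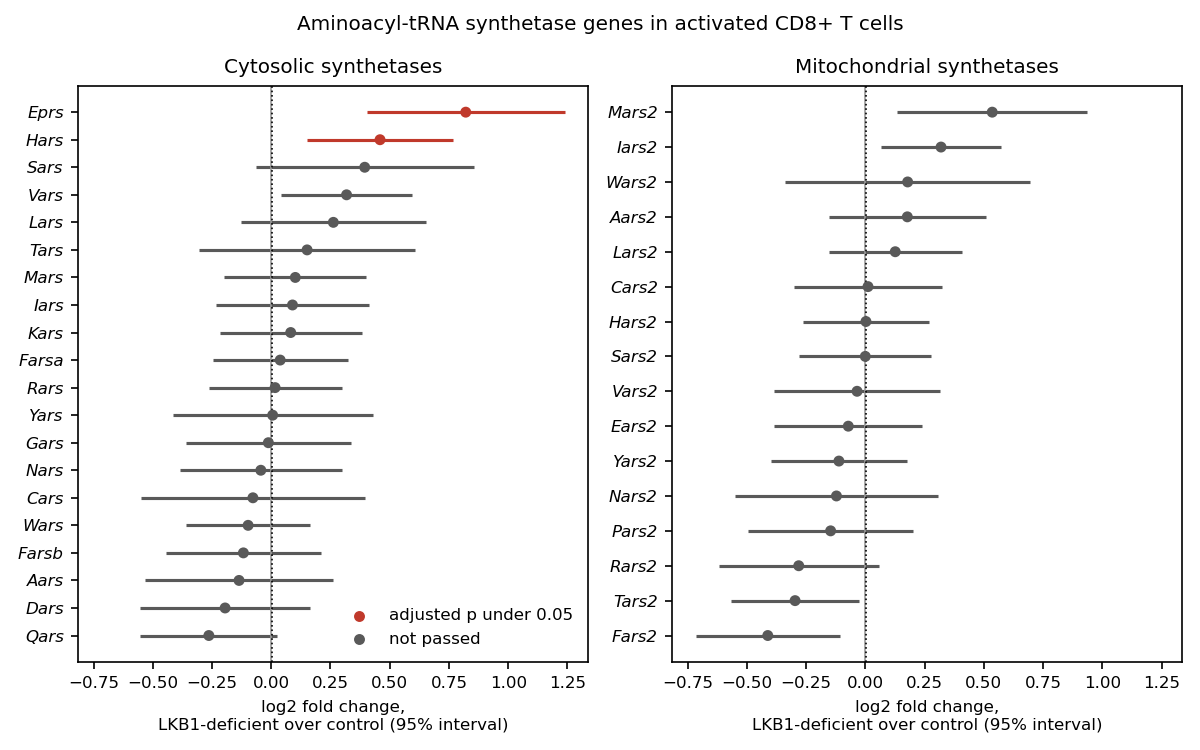
Log2 fold change of each synthetase gene, LKB1-deficient over control, with its 95% interval (n = 4 libraries each); the dotted line is the median of all tested genes. Eprs at 0.82 and Hars at 0.46 are the 2 genes whose adjusted p was under 0.05.

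Of the multisynthetase complex, which holds Eprs, Iars, Lars, Mars, Qars, Rars, Kars and Dars, 1 of the 8 enzymes rose and 0 fell, 12.5% against 22.5% of all tested genes. Eprs lies on chromosome 1 from 185363044 to 185428360 (plus strand, GRCm38, ENSMUSG00000026615.14) and encodes the only bifunctional enzyme of the set, with glutamyl and prolyl activities joined in one chain. LKB1-deficient replicates 1 to 4 had 1059, 1537, 1479 and 1556 CPM of it, against 920, 916, 639 and 713 CPM in control replicates 1 to 4. Every LKB1-deficient library was above every control library, as in 12% of all tested genes, and LKB1-deficient replicate 1 stood below the other 3 of its group. This gave 0.82 ± 0.19 on the log2 fold change scale (SE; adjusted p = 0.0159, edgeR). The call ended without control replicate 3 (0.73, adjusted p = 0.0533) and without both LKB1-deficient replicates 2 and 4 (0.68, adjusted p = 0.125).

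In both groups the sample identifier of replicate 1 begins with ET and the others with EU. In the ET libraries, 1 per group, Eprs was at 1059 CPM in LKB1-deficient and 920 CPM in control cells, which allows no test. In the EU libraries alone the log2 fold change was 1.01 (adjusted p = 0.0202), with 1479 to 1556 CPM in LKB1-deficient and 639 to 916 CPM in control libraries.

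Fold changes moved with transcript length in these data. Tested genes whose longest transcript is over 5000 bases had a median log2 fold change of 0.35 and 26.5% were called higher, while those of up to 1500 bases had a median of -0.31 and 4.40% were called higher. Eprs, at 5638 bases, is in the longest class. With the length trend of each library removed its log2 fold change was 0.59 (adjusted p = 0.0239), so the call held at a smaller size.

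The other 7 enzymes of the complex were not called and had log2 fold changes from -0.26 to 0.26. Qars, for glutaminyl-tRNA synthetase, had the lowest log2 fold change among the cytosolic genes, with 163, 139, 172 and 149 CPM in LKB1-deficient replicates 1 to 4, against 172, 175, 216 and 185 CPM in control replicates 1 to 4. The highest LKB1-deficient library was just under the lowest control library, and the log2 fold change of -0.26 ± 0.13 did not pass (adjusted p = 0.159). Lars (leucine) was at 0.26, Mars (methionine) at 0.10, Iars (isoleucine) at 0.09, Kars (lysine) at 0.08, Rars (arginine) at 0.02 and Dars (aspartate) at -0.19 on the log2 fold change scale. Kars encodes the mitochondrial as well as the cytosolic lysyl enzyme. The summed CPM of the 7 enzymes other than Eprs was 1470 to 1575 in LKB1-deficient and 1308 to 1543 in control libraries, which overlapped. In 3' counting a transcript is meant to give tags from its end only, so that such sums follow transcript numbers rather than lengths. Whether they do so here was not tested, and fold changes moved with transcript length as given above. Eprs made up 47.9% ± 4.97 of the summed CPM of the complex's 8 enzymes in LKB1-deficient and 34.9% ± 5.47 in control cells (SD, n = 4 each). The lowest LKB1-deficient share, 40.7% in replicate 1, lay below the highest control share, 41.3% in replicate 1.

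The complex is held together by the scaffold proteins of Aimp1, Aimp2 and Eef1e1. Of these 3 genes 0 were called in edgeR's test, against 22.5% of all tested genes. At an unadjusted p under 0.05 there were also 0, against 39.3% of all tested genes. Aimp1 was at 426 ± 140 CPM in LKB1-deficient and 341 ± 42.2 CPM in control cells (adjusted p = 0.306). Eef1e1 was at 179 ± 20.5 and 146 ± 21.1 CPM in the same order (adjusted p = 0.164), and Aimp2 at 101 ± 5.32 and 107 ± 13.8 CPM (adjusted p = 0.667).

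**Figure D2:**
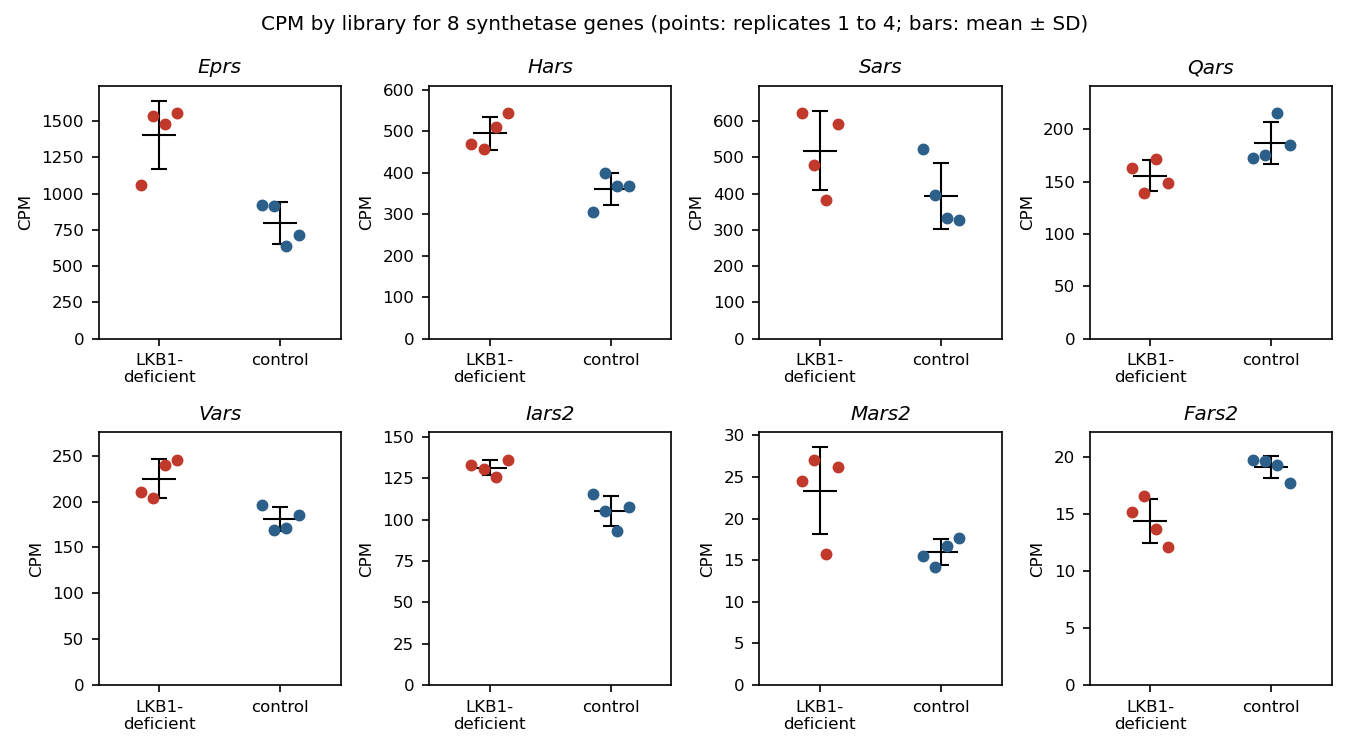
CPM by library for 8 synthetase genes (LKB1-deficient left, control right; points are replicates 1 to 4, bars mean ± SD). Eprs and Hars rose; the other 6 did not pass, although the groups also do not overlap for Qars, Vars, Iars2 and Fars2.

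Of the 12 cytosolic genes outside the complex, 1 rose and 0 fell, 8.33% against 22.5% of all tested genes. Hars lies on chromosome 18 from 36766528 to 36783205 on the minus strand. It was at 469, 457, 511 and 544 CPM in LKB1-deficient replicates 1 to 4, against 306, 399, 368 and 368 CPM in control replicates 1 to 4. All LKB1-deficient libraries were above all control libraries, with 0.46 ± 0.14 as log2 fold change (SE; adjusted p = 0.0398, edgeR). The call was close to the threshold. It held without LKB1-deficient replicate 1 or control replicate 2 and ended without LKB1-deficient replicate 2, 3 or 4 or control replicate 1, 3 or 4 (adjusted p from 0.0594 to 0.100), and without both LKB1-deficient replicates 2 and 4 (adjusted p = 0.146). It also ended with upper quartile and total count scaling (adjusted p = 0.103 and 0.201), without a filter (0.0794) and with the replicate number as a block (0.0761). In the EU libraries alone it was 0.41 (adjusted p = 0.0965), and the ET libraries, 1 per group, had 469 CPM in LKB1-deficient and 306 CPM in control cells. With the length trend removed the log2 fold change was 0.63 (adjusted p = 0.0145).

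Sars, for seryl-tRNA synthetase, had the highest log2 fold change among the uncalled cytosolic genes. It was at 623, 478, 383 and 591 CPM in LKB1-deficient replicates 1 to 4, against at 523, 395, 332 and 328 CPM in control replicates 1 to 4. The groups overlapped, and the log2 fold change of 0.39 ± 0.21 did not pass (adjusted p = 0.183). Vars, for valyl-tRNA synthetase, was at 211, 204, 240 and 246 CPM in LKB1-deficient replicates 1 to 4, against 197, 169, 171 and 185 CPM in control replicates 1 to 4. The groups did not overlap, yet its log2 fold change of 0.32 ± 0.13 did not pass (adjusted p = 0.0888) and DESeq2 alone among the alternatives called it (adjusted p = 0.0197).

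The remaining genes outside the complex had log2 fold changes from -0.14 to 0.15. Tars (threonine) was at 0.15, Farsa at 0.04, Yars (tyrosine) at 0.01, Gars at -0.01, Nars (asparagine) at -0.04, Cars (cysteine) at -0.08, Wars (tryptophan) at -0.10, Farsb at -0.12 and Aars (alanine) at -0.14. Gars encodes the glycyl enzymes of both compartments. Farsa and Farsb encode the subunits of the cytosolic phenylalanyl enzyme, and the ratio of their CPM was 0.742 ± 0.0705 in LKB1-deficient and 0.666 ± 0.0727 in control cells (SD, n = 4 each), with overlapping libraries. Split by catalytic fold, 0 of 9 class I cytosolic genes and 1 of 10 class II genes, Hars, were called, against 22.5% of all tested genes, leaving aside Eprs, which joins both classes.

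Summed over the 20 cytosolic genes, CPM came to 6040, 6055, 6292 and 6561 in LKB1-deficient replicates 1 to 4, against 5088, 5603, 5237 and 5317 CPM in control replicates 1 to 4. With TMM scaling the groups did not overlap, at a ratio of 1.17 between the group means. Without Eprs the sums were 4518 to 5005 CPM in LKB1-deficient and 4168 to 4687 CPM in control libraries, which overlapped, and Eprs accounted for 611 of the 926 CPM between the means. Summed over the 16 mitochondrial genes, CPM came to 554, 517, 534 and 521 in LKB1-deficient replicates 1 to 4 and 529, 512, 525 and 557 in control replicates 1 to 4, with means of 531 ± 16.8 and 531 ± 18.9 CPM. Total count scaling moved the median log2 fold change to -0.13 for the cytosolic and -0.18 for the mitochondrial genes. The gap between the cytosolic sums and the equal mitochondrial means therefore rest on TMM scaling. Sums at other scalings were not taken.

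**Figure D3:**
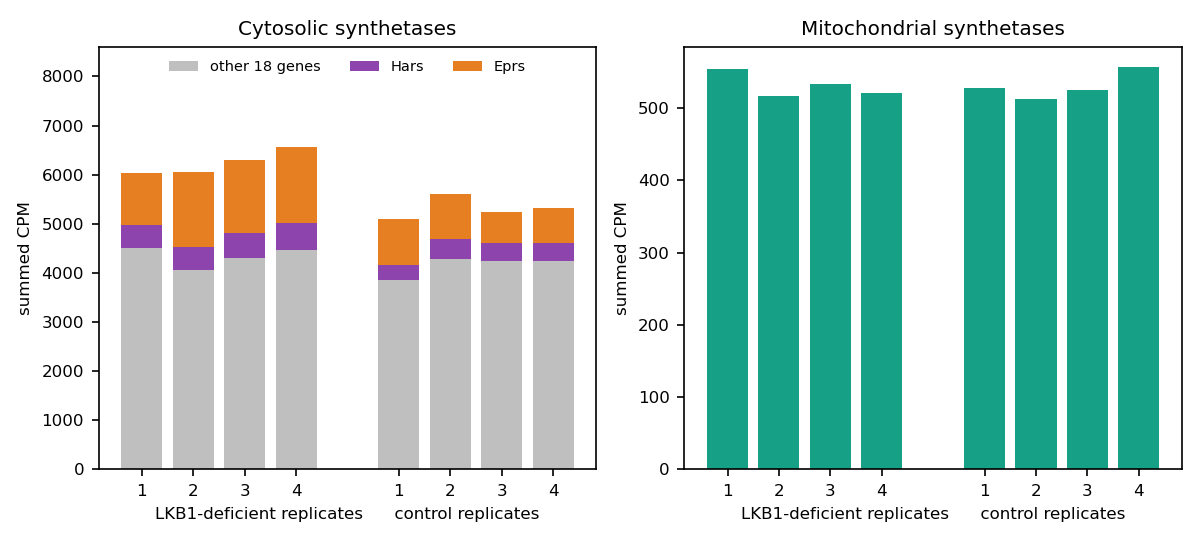
Summed CPM of the cytosolic (left, with Eprs and Hars set apart) and the mitochondrial synthetase genes (right) in each library, LKB1-deficient replicates then control replicates. With TMM scaling, the only one used for these sums, the cytosolic sums lie at 6040 to 6561 CPM in LKB1-deficient and 5088 to 5603 CPM in control libraries. The mitochondrial sums overlap.

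Of the 16 mitochondrial genes none was called by edgeR, and their log2 fold changes ran from -0.41 to 0.54. Mars2, for the mitochondrial methionyl enzyme, had the highest log2 fold change, with 24.5, 27.1, 15.7 and 26.1 CPM in LKB1-deficient replicates 1 to 4, against 15.5, 14.1, 16.7 and 17.7 CPM in control replicates 1 to 4. LKB1-deficient replicate 3 lay among the controls, and the log2 fold change of 0.54 ± 0.18 did not pass (adjusted p = 0.0566). Without that library it was 0.69 and passed (adjusted p = 0.00960), and it also passed with DESeq2 (0.0370) and with thinned libraries (0.0420). The longest annotated Mars2 transcript has 11294 bases, and with the length trend removed the value was -0.10 (adjusted p = 0.777).

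Fars2, for the mitochondrial phenylalanyl enzyme, had the lowest log2 fold change. It was at 15.2, 16.6, 13.7 and 12.1 CPM in LKB1-deficient replicates 1 to 4, against 19.8, 19.7, 19.3 and 17.7 CPM in control replicates 1 to 4. The groups did not overlap, and the log2 fold change was -0.41 ± 0.14 (adjusted p = 0.0544). DESeq2, both other scalings and a filter on a mean of 10 CPM called it lower (adjusted p from 0.0310 to 0.0481). The annotated 3' end of Fars2 is within 500 bases of Nrn1 on the opposite strand, and Nrn1 had 30.7 ± 19.7 CPM in LKB1-deficient and 364 ± 125 CPM in control cells. The libraries keep the strand per the labels, but whether the counting used it is not given in the sources used here. Without it, reads from these genes cannot be told apart, so the Fars2 values are uncertain. The same holds for Farsb, Mars, Yars, Cars2, Iars2 and Vars2, whose 3' ends also lie within 500 bases of a gene on the opposite strand (Ddit3 for Mars). At the 3' end of Aars lies Exosc6 on the same strand, where counting by strand would not separate reads. The Aars values are therefore uncertain too.

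Iars2, for the mitochondrial isoleucyl enzyme, was at 133, 131, 126 and 136 CPM in LKB1-deficient replicates 1 to 4, against 115, 105, 93.3 and 108 CPM in control replicates 1 to 4. The groups did not overlap, and the log2 fold change of 0.32 ± 0.11 did not pass (adjusted p = 0.0668). DESeq2 called it higher (adjusted p = 0.0139), and it was 0.11 with the length trend removed (adjusted p = 0.510). Tars2, for the threonyl enzyme, was at 57.1 to 68.4 CPM in LKB1-deficient and 73.2 to 88.5 CPM in control libraries without overlap, at a log2 fold change of -0.30 ± 0.12 (adjusted p = 0.100). The others on this scale were Wars2 and Aars2 at 0.18, Lars2 at 0.13, Cars2 at 0.01, Hars2 and Sars2 at 0.00, Vars2 at -0.03, Ears2 at -0.07, Yars2 at -0.11, Nars2 at -0.12, Pars2 at -0.15 and Rars2 at -0.28. Libraries of the groups overlapped for each of these 12 genes.

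The sizes of the differences were small beside those of other genes. The median absolute log2 fold change was 0.12 over the 36 members and 0.34 over all tested genes. It was 0.36 over the 2282 genes at least as abundant as the least abundant cytosolic member (101 CPM), of which 26.4% were called. A 95% interval inside a 1.5-fold change in either direction was found for 26 of the 36 members, or 72.2%, against 28.7% of all tested genes. The share was 35.1% over the 8156 tested genes at least as abundant as the least abundant member (8.92 CPM). An interval inside a 2-fold change was found for 35 of the 36 members, against 66.0% of all tested genes and 74.1% of those 8156. The exception was Eprs, whose interval ran from 0.40 to 1.24. The SE of the members ran from 0.11 to 0.23.

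**Figure D4:**
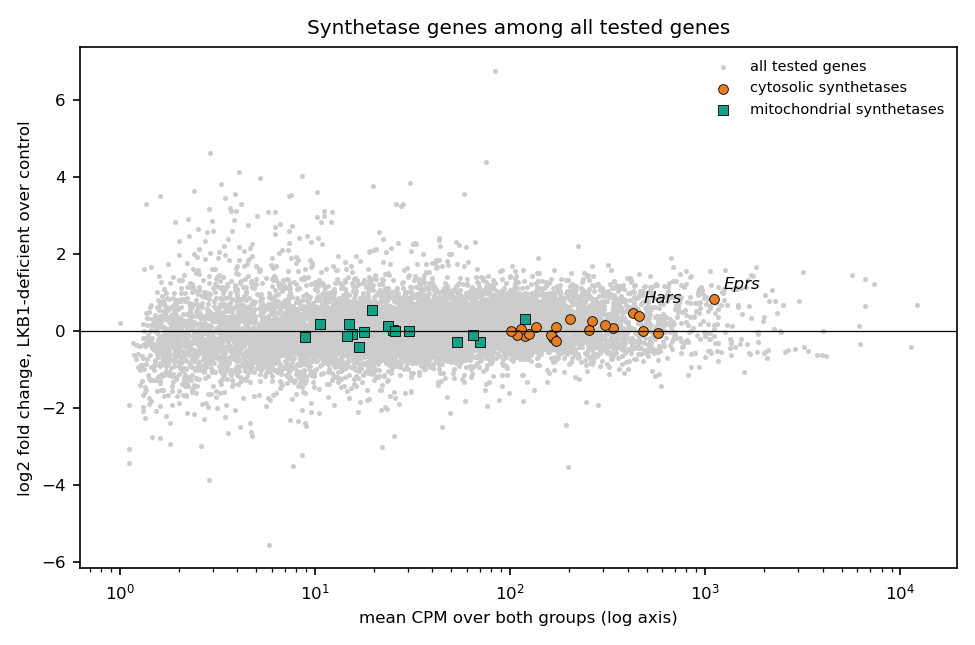
Log2 fold change, LKB1-deficient over control, against mean CPM (log axis) for all 10396 tested genes, with the cytosolic and the mitochondrial synthetase genes marked. The 36 marked genes lie between -0.41 and 0.82, and Eprs is both the most abundant and the highest of them.

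Spread between replicates differed by gene. The coefficient of variation had a median of 12.3% in LKB1-deficient and 11.2% in control cells, and it was larger in the LKB1-deficient group for 19 of the 36 genes. Among LKB1-deficient libraries it was highest for Wars2 (31.2%), Nars2 (29.3%), Cars (29.2%) and Tars (28.6%). Tars was at 234, 443, 269 and 342 CPM in LKB1-deficient replicates 1 to 4, a range that holds all 4 control libraries (254 to 325 CPM). Cars was highest in LKB1-deficient replicate 4, at 169 CPM, and lowest in LKB1-deficient replicate 2, at 84.2 CPM, with control libraries at 97.7 to 154 CPM. Lars2 varied least among LKB1-deficient libraries, at 24.2 to 25.1 CPM.

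Enzymes for the same amino acid in the cytosol and in mitochondria were set against each other within each library, as the log2 ratio of their CPM. Hars and Hars2 lie head to head on chromosome 18 and share 198 bases at their starts, with their 3' ends apart. Hars2 was at 27.9, 33.2, 29.6 and 31.5 CPM in LKB1-deficient replicates 1 to 4, against 28.8, 33.8, 30.7 and 28.4 CPM in control replicates 1 to 4, at a log2 fold change of 0.00 ± 0.12. The log2 ratio of Hars to Hars2 was 4.02 ± 0.16 in LKB1-deficient and 3.56 ± 0.12 in control cells (SD, n = 4 each), with no overlap. Ratios of Eprs to Ears2 and to Pars2, the mitochondrial glutamyl and prolyl enzymes, were higher by 0.91 and 0.98 on the log2 scale, and that of Vars to Vars2 by 0.36. These 4 of 15 pairs reached a two-sided p of 0.0286 in an exact permutation test of 4 libraries against 4, the smallest it can give. Adjusted over the 15 pairs none passed (adjusted p = 0.107 for each). With that smallest p, 4 pairs among 15 could not pass however far apart their libraries lay, so the adjustment decides nothing here. The groups did not overlap for 4 of the 15 ratios, beside 26.1% of all tested genes taken singly. Eprs enters with Ears2 and again with Pars2, and Hars, Eprs and Vars had already shown higher values.

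**Figure D5:**
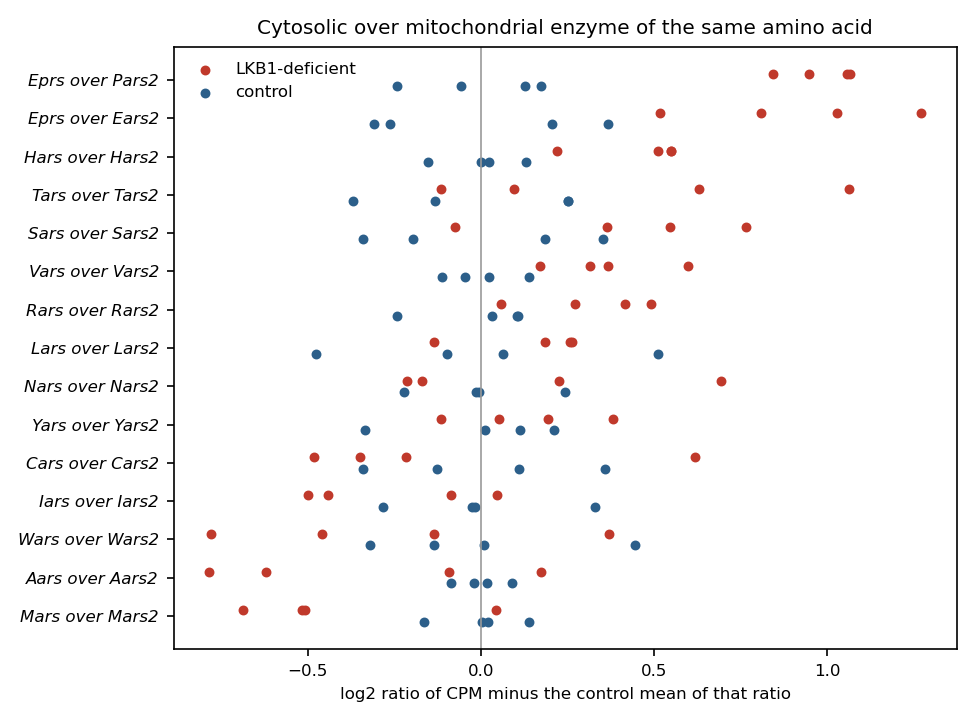
Log2 ratio of CPM of the cytosolic over the mitochondrial enzyme for 15 pairs, per library, minus the control mean of that ratio (LKB1-deficient above control in each row). The groups do not overlap for Eprs over Pars2, Eprs over Ears2, Hars over Hars2 and Vars over Vars2.

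Genes on either side of tRNA charging were read in lists of the same fit. In that fit 22.5% of all tested genes were called and 39.3% had an unadjusted p under 0.05. Mitochondria make glutaminyl-tRNA by an amidotransferase and start proteins with formylated methionyl-tRNA, and of the 4 genes Gatb, Gatc, Qrsl1 and Mtfmt 0 were called, also at an unadjusted p under 0.05 (median log2 fold change -0.09). Of 7 proofreading and tRNA hydrolase genes 1 fell, or 14.3%. It was Ptrhd1, at 30.8 ± 4.45 CPM in LKB1-deficient and 44.2 ± 6.70 CPM in control cells (adjusted p = 0.0398). Of 4 genes of the selenocysteine tRNA route 1 fell, or 25%. It was Pstk, a kinase that acts on seryl-tRNA before selenocysteine is made (41.8 ± 6.77 against 60.1 ± 5.99 CPM, adjusted p = 0.0306). Without LKB1-deficient replicate 2 or 4 or control replicate 3 or 4 the calls of both ended, and that of Ptrhd1 also without LKB1-deficient replicate 3 or control replicate 1 (adjusted p from 0.0528 to 0.108). Ptrhd1 also lost its call with the sample name prefix as a covariate (adjusted p = 0.0559) and in the EU libraries alone (0.0697). Of 23 genes of tRNA maturation and export 1 rose, or 4.35%. It was Elac2, which trims tRNA 3' ends, at 32.7 ± 5.38 CPM in LKB1-deficient and 19.5 ± 1.97 CPM in control cells (adjusted p = 0.0111). It kept its call without any single library and lost it without both LKB1-deficient replicates 2 and 4 (adjusted p = 0.0802).

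RNA polymerase III transcribes tRNA genes, and of 20 genes for its subunits and factors 6 rose and 2 fell, 40.0% against the 22.5% of all tested genes. Other measures were nearer to those of all tested genes. An unadjusted p under 0.05 was found for 9 of the 20, against 39.3% of all tested genes. Log2 fold changes were above 0 for 11 and below 0 for 9. All LKB1-deficient libraries were above all control libraries for 4 genes and below them for 2, against 12% and 14.1% of all tested genes. Maf1, its repressor, was at 27.7 ± 7.12 CPM in LKB1-deficient and 52.0 ± 3.20 CPM in control cells (log2 fold change -0.90 ± 0.18, adjusted p = 0.00987). Gtf3c1, of the factor TFIIIC, was at 70.8 ± 21.5 and 34.5 ± 7.52 CPM in the same order (log2 fold change 1.03, adjusted p = 0.0145), and with the length trend removed its log2 fold change was 0.67 (adjusted p = 0.0203). Polr3a, the largest subunit, was at 24.6 ± 2.47 against 16.1 ± 2.12 CPM, and Polr3d at 190 ± 79.8 against 86.0 ± 13.6 CPM in control cells (adjusted p = 0.0170 and 0.0172). Bdp1, Polr3f and Polr3g also rose, but each call ended without LKB1-deficient replicate 2 or 4 or control replicate 3 or 4. That of Bdp1 also ended without control replicate 1 and without a filter, and that of Polr3g without control replicate 2. Polr3g further lost its call with limma-voom, no filter, the sample name prefix as a covariate, thinned libraries and both other scalings. Polr3k, another subunit, was the other gene that fell, to a mean of 81.2 CPM in LKB1-deficient cells, against 114 CPM in control cells (log2 fold change -0.49 ± 0.15, adjusted p = 0.0411), and it lost its call without any 1 library other than control replicate 2 (adjusted p from 0.0509 to 0.107). Polr3k also lost it with the sample name prefix as a covariate (0.0587), in the EU libraries alone (0.0871) and with the length trend removed (0.0637). The count depended on single libraries, with 1 to 7 higher and 1 to 2 lower when 1 was left out, and it was 0 without both LKB1-deficient replicates 2 and 4. Leaving out LKB1-deficient replicate 4 or control replicate 3 ended the calls of Polr3a and Polr3d (adjusted p from 0.0513 to 0.0552), as did total count scaling for Polr3a (0.0595).

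Of 5 cytosolic elongation factors 1 fell, 20% against 22.5% of all tested genes called. It was Eef1a1, which carries charged tRNA to the ribosome, at 2946 ± 438 CPM in LKB1-deficient and 4547 ± 628 CPM in control cells (adjusted p = 0.0310). Of 10 mitochondrial translation factors 1 rose, 10% against the same 22.5%. It was Tufm, which carries charged tRNA in mitochondria (log2 fold change 0.60 ± 0.16, adjusted p = 0.0271). The call of Eef1a1 ended without LKB1-deficient replicate 2 or 4 or control replicate 3 or 4 (adjusted p from 0.0781 to 0.0952), with the replicate block (0.0520) and with the length trend removed (0.0564). That of Tufm ended without LKB1-deficient replicate 3 or 4 or any 1 control library (adjusted p from 0.0502 to 0.0823), with the replicate block (0.0596) and with upper quartile or total count scaling (0.0543 and 0.0991).

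Of 16 genes of the GCN2 and ATF4 response 1 rose and 1 fell, 12.5% against 22.5% of all tested genes, with a median log2 fold change of -0.01. Atf4 was at 1125 ± 269 CPM in LKB1-deficient and 1086 ± 211 CPM in control cells (log2 fold change 0.05 ± 0.20, adjusted p = 0.878), and Eif2ak4, which encodes GCN2, at 37.6 ± 11.8 and 26.6 ± 8.31 CPM (adjusted p = 0.190). The gene that rose was Gcn1l1, for the GCN2 activator GCN1, at 88.1 ± 51.5 against 27.4 ± 8.64 CPM in control cells (adjusted p = 0.0156). It lost its call without both LKB1-deficient replicates 2 and 4 (adjusted p = 0.123). Ddit3, for the stress factor CHOP, fell to 24.1 ± 6.71 CPM in LKB1-deficient cells, against 41.1 ± 9.39 CPM in control cells (adjusted p = 0.0377), a call that ended without LKB1-deficient replicate 2 or 4 or control replicate 2, 3 or 4 (adjusted p from 0.0644 to 0.108). It also ended with the replicate block (0.0590), the sample name prefix as a covariate (0.0535) and thinned libraries (0.0726). With the length trend removed the log2 fold change of Ddit3 was -0.41, against -0.76 before (adjusted p = 0.143). Ddit3 meets the 3' end of Mars on the opposite strand, so its values share the uncertainty about strand given for Mars. Levels of Atf4 mRNA do not measure ATF4 protein, which is controlled largely in translation.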

How the data were processed

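The 8 mouse libraries were analysed, 4 LKB1-deficient and 4 control, grouped and numbered by their titles. Per the labels' protocols, cDNA was primed with barcoded oligo-dT, pooled and amplified into strand-specific 3' RNA-seq libraries. Molecular identifiers are not mentioned, and PCR duplicates can therefore enter the counts. The authors deposited unnormalized read counts, one table per library, by gene symbol. Per the submitters' processing notes reads were aligned with STAR to mm10; for the counter, versions and annotation the sources used here give nothing. Each table ends in 5 lines without a gene, which stayed out of library sizes and tests, among them reads outside genes and reads aligned to several places.

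Counts were tested in R 4.3.3 with edgeR 4.0.16 (filterByExpr with minimum count 10 and total 15, TMM, robust quasi-likelihood test without covariates, Benjamini-Hochberg adjustment, threshold 0.05), after a check on simulated data. SE was taken as the size of the log2 fold change over the root of F, and intervals are 95%. Exact permutation tests used SciPy 1.17.1. Chosen by name, the 36 members, and the lists set beside them, were picked with earlier results of these data known. Per-library values are given for called members, for the uncalled members with the largest rise and fall in each compartment, and for others picked after their values were seen. Up to 4 called genes of each other list are named by smallest p, and Bdp1, Polr3f, Polr3g and Polr3k were added after their values were seen. Coordinates and transcript lengths come from GENCODE vM21 (GRCm38). None of the 12 pairs of libraries within a group agreed within sampling noise (chi-square over its degrees of freedom at least 11.6). Alternatives were DESeq2 1.42.0, other scalings and filters, limma-voom (limma 3.58.1), a replicate block, the sample name prefix, thinning to 3454388 counts, a length trend (lowess span 0.3), an adjusted p of 0.01 and libraries left out.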

Additional observations from a re-analysis of the deposited data

Results flagged for a closer look

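Among 72 groups of 4 libraries, 1 gap beyond Dixon's limit was found for Eprs and 1 for Tars2, and chance flags about 1 group in 20. Eprs in LKB1-deficient replicate 1, at 1059 CPM, was far below the nearest LKB1-deficient library, at 1479 CPM. Tars2 in control replicate 4, at 88.5 CPM, was above the next control library, at 75.7 CPM.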

How the results depend on the processing

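Directions of Eprs and Hars held under all 21 alternatives, with log2 fold changes of 0.59 to 1.01 and 0.29 to 0.63. Over 755 member values, 730 kept their side of the threshold, 16 lost and 9 gained a call, and 30 of the 36 members were never called. The number of called cytosolic genes, 2 at first, was 3 with DESeq2, 1 with upper quartile scaling, total count scaling, no filter, the replicate block or EU libraries only, 0 at an adjusted p of 0.01, and 0 to 2 when 1 library was left out. The number of called mitochondrial genes, 0 at first, was 3 with DESeq2, 1 with upper quartile scaling, total count scaling, a mean of 10 CPM or thinning, and 0 to 1 when 1 library was left out. Without both LKB1-deficient replicates 2 and 4 the cytosolic count was 0 and the mitochondrial median turned to 0.057. The cytosolic median turned to -0.13 with total count scaling, and the mitochondrial median was -0.11 with upper quartile and -0.18 with total count scaling, beside shifts of -0.10 and -0.16 over all genes. Calls over all genes were 2337, 1011 to 2825 when 1 library was left out, 260 without both LKB1-deficient replicates 2 and 4 and 437 at an adjusted p of 0.01. Same-numbered libraries did not deviate together in every pair (correlations of -0.25, 0.29, 0.30 and -0.09 for replicates 1 to 4), so the numbers were not taken as pairs. The replicate block gave 1902 calls in all, and Hars lost its call (adjusted p = 0.0761). LKB1-deficient replicates 2 and 4 correlated with control replicates 1 and 2 at 0.16 to 0.29 and with control replicates 3 and 4 at -0.33 to -0.09. LKB1-deficient replicates 1 and 3 correlated with control replicates 3 and 4 at 0.04 to 0.34 and with control replicates 1 and 2 at -0.37 to -0.12. Deviations are taken from group means, which builds in some opposite signs. A factor shared across the groups was not tested. Apart from settings that change the scale or leave out libraries by construction, the cause was not tested. The members averaged 8.92 to 1102 CPM, and thinning every library to 3454388 counts left both cytosolic calls.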

Other observations

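Another annotated gene lies within 500 bases of the 3' end of 8 members, on the opposite strand for 7 of them and on the same strand, Exosc6, for Aars. Beside Fars2 they include Mars, whose 3' end meets Ddit3, and Iars2, whose 3' end meets Rab3gap2 (27.6 ± 3.56 CPM in LKB1-deficient and 24.8 ± 0.674 CPM in control cells). No annotated gene lies that near to the 3' ends of Eprs and Hars. Iars2 and Eprs lie 33.6 kb apart on chromosome 1, on opposite strands, and genes between them were not looked for. In both, every LKB1-deficient library was above every control library, as in 12% of all tested genes. Iars2 did not pass (adjusted p = 0.0668, edgeR).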
